A study of Homo sapiens with 6 samples.

Results

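The circadian clock genes described here are the transcriptional activator genes CLOCK and ARNTL, the period genes PER1, PER2 and PER3, the cryptochrome genes CRY1 and CRY2, the REV-ERB receptor genes NR1D1 and NR1D2, and the output factor gene DBP. They were chosen by symbol from the gene tables, and all 10 were found among the 27968 genes listed and passed the filter on low counts. The cells were T47D, an established human luminal breast cancer cell line, cultured in RPMI medium with serum. One group of 3 libraries came from cells that received a HOTAIR-N-specific siRNA, HOTAIR being a long noncoding RNA of the HOXC locus, and the other group of 3 came from cells that received a control siRNA, each from its own transfection with the lipid reagent RNAiMAX. Total RNA was taken 48 hours after transfection in both groups, depleted of ribosomal RNA and sequenced. A transient siRNA acts on a whole culture, so each value is an average over cells, and a change in RNA per cell cannot be told apart from a change in the share of cells that express a gene.

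In the molecular clock, CLOCK and ARNTL (also called BMAL1) pair and activate genes through E-box elements, among them the PER, CRY, NR1D and DBP genes. PER and CRY proteins build up and inhibit that pair, which closes the main loop. NR1D1 and NR1D2 repress ARNTL through elements that they share with the activating ROR receptors, and DBP activates genes through D-box elements. Levels of many of these transcripts, though not of all of them, cycle over the day in many tissues and in cultured cells after a synchronising stimulus. With a single collection time, a shift in the phase of such a cycle and a shift in its mean level cannot be told apart in these data.

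HOTAIR, the siRNA target, was read at gene level, with HOTAIR-N not measured apart. Levels are given in CPM (read counts scaled to library size, with factors from the trimmed mean of M values). HOTAIR was at 5.65, 5.63 and 5.68 CPM in HOTAIR-N siRNA replicates 1, 2 and 3. It was at 16.2, 16.1 and 16.6 CPM in control siRNA replicates 1, 2 and 3, so that the HOTAIR-N siRNA group stood at 34.7% of control. The libraries held 31777001 to 36707169 expected counts, and a clock gene drew between 70 and 1690 of them in a library. All 9 luminal breast markers were above 1 TPM (a share of all transcripts, corrected for length) in every library, with a sum of 8200 to 9060 TPM in HOTAIR-N siRNA libraries and 9090 to 10300 TPM in control siRNA libraries. Of 5 fibroblast markers 1 was above 1 TPM, with a sum of 7.69 to 8.97 TPM in HOTAIR-N siRNA libraries and 8.86 to 10.1 TPM in control siRNA libraries, and the 4 endothelial markers summed to at most 0.07 TPM. The 5 leukocyte markers summed to 0.44 to 0.49 TPM in HOTAIR-N siRNA libraries and 0.48 to 0.89 TPM in control siRNA libraries. HOTAIR-N siRNA replicate 3 and control siRNA replicate 2 stood apart from the other libraries of their groups, with a chi-square of counts over genes, per degree of freedom, of 7.07 to 9.05 in pairs that held one of them and 2.19 to 2.37 in the other pairs. The clock genes that changed are therefore also given without this pair of libraries, together with the counts of calls and PER1.

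Of the 10 clock genes, 5 rose, 2 fell and 3 were not called after the HOTAIR-N siRNA, by the quasi-likelihood test of edgeR, with a Benjamini-Hochberg adjusted p over all 14919 genes tested and a threshold of 0.05. DBP, CRY2, NR1D1, PER2 and CLOCK rose, CRY1 and NR1D2 fell, and ARNTL, PER1 and PER3 were not called. Among all genes tested, 36.2% were called higher and 34.8% called lower, so the share of clock genes called was near that of genes in general. The median log2 fold change was 0.20 over the clock genes and 0.02 over all genes tested, and the median size of the change regardless of sign was 0.35 and 0.38. Of the 7 clock genes called, 5 changed by less than 1.5-fold, as did 5732 of the 10605 genes called in all. Libraries of the groups did not overlap for 7 of the 10, where 73.4% of all genes tested had groups that did not overlap. The paralog pairs CRY1 with CRY2 and NR1D1 with NR1D2 each held a gene that rose and a gene that fell.

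**Figure D1:**
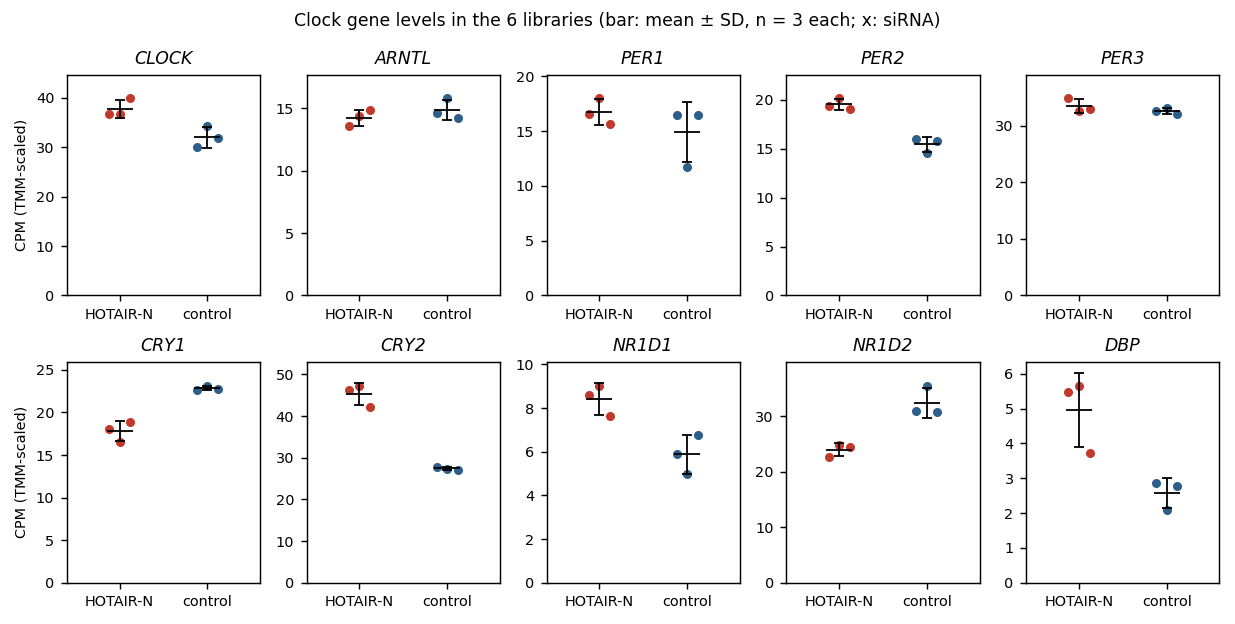
CPM of each of the 10 clock genes in the 3 HOTAIR-N siRNA libraries (red, left) and the 3 control siRNA libraries (blue, right), with the mean and SD as bars and each vertical axis starting at 0. All HOTAIR-N siRNA libraries lie above all control siRNA libraries for CLOCK, PER2, CRY2, NR1D1 and DBP, and below them for CRY1 and NR1D2, while the groups overlap for ARNTL, PER1 and PER3.

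Of the activators, CLOCK rose slightly and ARNTL was not called. CLOCK, which encodes the partner with histone acetyltransferase activity, was at 36.8, 36.8 and 39.9 CPM in HOTAIR-N siRNA replicates 1, 2 and 3, against 30.0, 34.2 and 31.9 CPM in control siRNA replicates 1, 2 and 3. The lowest HOTAIR-N siRNA library thus lay above the highest control siRNA library, control siRNA replicate 2. The rise was 1.18-fold (log2 fold change 0.24, SE 0.06, edgeR adjusted p = 0.005). ARNTL had 13.6, 14.4 and 14.8 CPM in HOTAIR-N siRNA libraries, against 14.6, 15.8 and 14.3 CPM in control siRNA libraries, and the groups overlapped. Its log2 fold change was -0.06 with a 95% interval of -0.22 to 0.09 (edgeR adjusted p = 0.43), and the sign turned (0.03) when libraries were scaled by their totals alone. The promoter of ARNTL is a known meeting point of the NR1D and ROR receptors. The stretch around the first of its annotated starts holds 1 copy of the core letters TAGGTCA, and the stretch around the other holds none. The copy is shown in capitals with its flanks:
ARNTL: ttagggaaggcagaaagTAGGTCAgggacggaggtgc
This stretch lies at chr11:13277803-13277839 on the plus strand of GRCh38.p14, from RefSeq. The first capital is at position 30 from that first annotated start.

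The activator paralogs rested on few counts. NPAS2, which can replace CLOCK, was at 0.485 ± 0.176 CPM after the HOTAIR-N siRNA and 1.40 ± 0.0862 CPM after the control siRNA (SD, n = 3 each) and fell to 34.6% of control (edgeR adjusted p = 1e-04). It rested on 11 to 22 counts in a HOTAIR-N siRNA library and 47 to 52 in a control siRNA library. ARNTL2, the paralog of ARNTL, was at 1.26 to 1.37 CPM after the HOTAIR-N siRNA and 1.29 to 1.79 CPM after the control siRNA and was not called (edgeR adjusted p = 0.34). Per length, CLOCK stood at 31.4 times the TPM of NPAS2 on average in HOTAIR-N siRNA libraries and at 8.47 times in control siRNA libraries.

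Among the period genes, which encode the rhythmic inhibitors of CLOCK and ARNTL, PER2 rose and PER1 and PER3 were not called. PER2 was at 19.4, 20.2 and 19.0 CPM in HOTAIR-N siRNA replicates 1, 2 and 3, against 15.97, 14.5 and 15.8 CPM in control siRNA replicates 1, 2 and 3. The groups were well apart, and the rise was 1.26-fold (log2 fold change 0.34, SE 0.06, edgeR adjusted p = 0.00053). PER1, an immediate target of cAMP and glucocorticoid signals, had 16.6, 18.0 and 15.6 CPM in HOTAIR-N siRNA libraries, against 16.5, 11.7 and 16.5 CPM in control siRNA libraries. Control siRNA replicate 2 stood below all the rest. The log2 fold change was 0.16 (SE 0.11, edgeR adjusted p = 0.21) with all libraries and 0.01 without that library. PER3 had the smallest fold change of the 10, at 34.9, 32.7 and 32.9 CPM in HOTAIR-N siRNA libraries, against 32.7, 33.1 and 32.1 CPM in control siRNA libraries. The 95% interval of its log2 fold change ran from -0.08 to 0.15 (edgeR adjusted p = 0.56), and it was called higher under 1 setting, scaling by library totals alone (log2 fold change 0.13, adjusted p = 0.037), which moved the median of all genes to 0.116.

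The 3 period genes differ in part in the clock elements around their starts, and PER2 and PER3 share the D-box. In RefSeq promoter windows from 250 bases before to 50 after each start, an E-box was searched as CACGTG, a close variant as CACGTT, a D-box as TTANGTAA and a ROR element as TAGGTCA, on both strands, and no matches overlapped in the clock genes. Of all 35116 windows, 7.26% held CACGTG, 5.34% held CACGTT, 2.18% held TTANGTAA and 1.85% held TAGGTCA. The 10 clock genes have 15 windows, of which 2 held CACGTG, 5 held CACGTT, 3 held the D-box and 2 held the ROR element. Counted by gene, CACGTG was found in 2 (PER1 and NR1D2) and CACGTT in 5 (CLOCK, PER2, CRY1, CRY2 and NR1D1). The D-box was found in 3 genes (PER2, PER3 and NR1D2) and the ROR element in 2 (ARNTL and CRY2). PER1 holds an E-box, and PER2 and PER3 hold a D-box, which are the capitals here:
PER1: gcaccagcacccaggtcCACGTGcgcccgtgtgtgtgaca
PER2: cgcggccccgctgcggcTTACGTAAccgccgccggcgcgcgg
PER3: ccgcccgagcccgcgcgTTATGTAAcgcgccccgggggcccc
They lie on GRCh38.p14 at chr17:8152555-8152594 (minus strand), chr2:238288589-238288630 (minus strand) and chr1:7784097-7784138 (plus strand). The first capital is at -173, -3 and -177 from the annotated start. For PER3 this is the first of its annotated starts, and the window of its other start held none of the motifs. PER2 also holds the variant CACGTT at -197. A match is a description of letters only, not evidence that a factor binds.

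The cryptochromes, which bind and silence the activator pair, moved in opposite directions. CRY2 was at 46.4, 47.4 and 42.3 CPM in HOTAIR-N siRNA replicates 1, 2 and 3, against 27.9, 27.4 and 27.2 CPM in control siRNA replicates 1, 2 and 3. It had the smallest p of the 10 genes and rose 1.65-fold (log2 fold change 0.72, SE 0.06, edgeR adjusted p = 3.5e-07). CRY1 was at 18.0, 16.5 and 18.9 CPM in HOTAIR-N siRNA libraries, against 22.7, 23.2 and 22.7 CPM in control siRNA libraries. All HOTAIR-N siRNA libraries were lower, and the level fell to 78.0% of control (log2 fold change -0.36, SE 0.07, edgeR adjusted p = 0.00035). Within a library, the log2 ratio of CRY1 to CRY2 in TPM was -1.01, -1.16 and -0.80 in HOTAIR-N siRNA libraries, against 0.06, 0.10 and 0.10 in control siRNA libraries. CRY2 thus led after the HOTAIR-N siRNA, with a mean ratio of 0.506, and the genes were nearly even after the control siRNA, with a mean ratio of 1.06. The exact two-sided permutation p was 0.10, the smallest that 3 libraries against 3 can give.

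Both cryptochrome genes have a window with the E-box variant, read as AACGTG on the strand of the gene, and the same window of CRY2, at its second annotated start, also holds a ROR element. The elements are in capitals:
CRY1: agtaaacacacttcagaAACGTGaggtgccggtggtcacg
CRY2: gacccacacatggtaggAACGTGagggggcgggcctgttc
CRY2: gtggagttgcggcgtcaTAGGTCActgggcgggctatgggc
The CRY1 stretch is at chr12:107093616-107093655 (minus strand), and those of CRY2 are at chr11:45847270-45847309 and chr11:45847393-45847433 (plus strand, GRCh38.p14). The first capital is at -89 for CRY1, and at -188 and -65 for CRY2. Of the genes with these variant letters in a window, CLOCK, PER2, CRY2 and NR1D1 rose and CRY1 fell. CLOCK and CRY2 hold the letters only at the second annotated start. Of the genes with CACGTG, NR1D2 fell and PER1 was not called. Among all genes tested, 36.2% were called higher and 34.8% lower, and the directions of other genes with these letters were not counted. A link between the letters and the direction of change was not tested.

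CRY2 is annotated with a pair of transcripts, and the rise lay mainly in one of them. NM_021117 was at 16.2, 16.7 and 13.9 TPM in HOTAIR-N siRNA replicates 1, 2 and 3, against 8.35, 6.81 and 8.43 TPM in control siRNA replicates 1, 2 and 3, a 1.95-fold rise (log2 fold change 0.97, SE 0.12, edgeR adjusted p = 0.002 over 32285 transcripts). NM_001127457 was at 5.43, 5.46 and 6.04 TPM in HOTAIR-N siRNA libraries, against 4.55, 5.83 and 4 TPM in control siRNA libraries, with overlapping groups (log2 fold change 0.22, SE 0.16, edgeR adjusted p = 0.39). In the GENCODE annotation of GRCh38 the first begins 288 bases downstream of the second. NM_021117 made up 73.3% ± 3.16 of CRY2 after the HOTAIR-N siRNA and 62.2% ± 7.32 after the control siRNA (SD, n = 3 each), and the groups did not overlap. That shift in share did not pass the usage test of edgeR (adjusted p = 1).

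The REV-ERB receptors, haem-binding repressors of ARNTL, also moved apart. NR1D2 was at 22.7, 24.8 and 24.5 CPM in HOTAIR-N siRNA replicates 1, 2 and 3, against 31.0, 35.6 and 30.7 CPM in control siRNA replicates 1, 2 and 3. It fell to 74.0% of control (log2 fold change -0.43, SE 0.07, edgeR adjusted p = 0.00014). NR1D1 was at 8.58, 9.03 and 7.63 CPM in HOTAIR-N siRNA libraries, against 5.88, 4.98 and 6.76 CPM in control siRNA libraries. The lowest HOTAIR-N siRNA library, replicate 3, was still above the highest control siRNA library. The rise was 1.43-fold (log2 fold change 0.52, SE 0.11, edgeR adjusted p = 0.0014). The log2 ratio of NR1D1 to NR1D2 within a library was -0.48, -0.53 and -0.76 after the HOTAIR-N siRNA, against -1.47, -1.92 and -1.26 after the control siRNA, so that NR1D1 came to a mean of 0.667 of NR1D2 in TPM, against 0.347 (exact two-sided permutation p = 0.10, the smallest possible).

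The value of NR1D1 is uncertain because reads were shared with another gene. NR1D1 ends over the end of THRA, a thyroid hormone receptor gene on the opposite strand, with 1081 shared bases in the GENCODE annotation of GRCh38. Expected counts of the other 9 clock genes were whole in all 6 libraries, whereas those of NR1D1 and of THRA were fractional in each. Their sums were whole in all 6, at 1676, 1585 and 1448 counts in HOTAIR-N siRNA replicates 1, 2 and 3 and 1186, 1024 and 1144 in control siRNA replicates 1, 2 and 3, to within 0.011 of a count. The counting thus divided reads between these opposite-strand genes. THRA rose 1.41-fold as well, at 37.4, 39.2 and 34.3 CPM in HOTAIR-N siRNA libraries, against 27.4, 25.5 and 26 CPM in control siRNA libraries (edgeR adjusted p = 2.1e-05). The part of THRA in the rise of NR1D1 was not tested. CLOCK, PER2, PER3, CRY1, NR1D2 and DBP also overlap a gene on the opposite strand in that annotation, with whole counts in every library. Whole counts show that no reads were divided with another counted gene. They cannot by themselves show whether reads from the opposite strand were counted. Strand did not separate the reads of NR1D1 and THRA, however. If the same setting held for the whole run, reads from the opposite strand could also have been counted for these genes. Their number was not tested.

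The window at the second annotated start of NR1D2 holds a pair of E-boxes and a D-box, and the window of NR1D1 holds the E-box variant, here read as AACGTG. They are shown with the element in capitals, the D-box of NR1D2 last of its stretches:
NR1D2: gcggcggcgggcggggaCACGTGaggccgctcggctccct
NR1D2: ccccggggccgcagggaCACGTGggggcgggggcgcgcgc
NR1D2: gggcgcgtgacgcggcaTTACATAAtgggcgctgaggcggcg
NR1D1: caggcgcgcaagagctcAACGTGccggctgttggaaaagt
The NR1D2 stretches are at chr3:23945949-23945988, chr3:23945999-23946038 and chr3:23945910-23945951 (plus strand), and that of NR1D1 is at chr17:40100735-40100774 (minus strand, GRCh38.p14). The first capital is at -155, -105 and -194 for NR1D2 and at -168 for NR1D1.

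**Figure D2:**
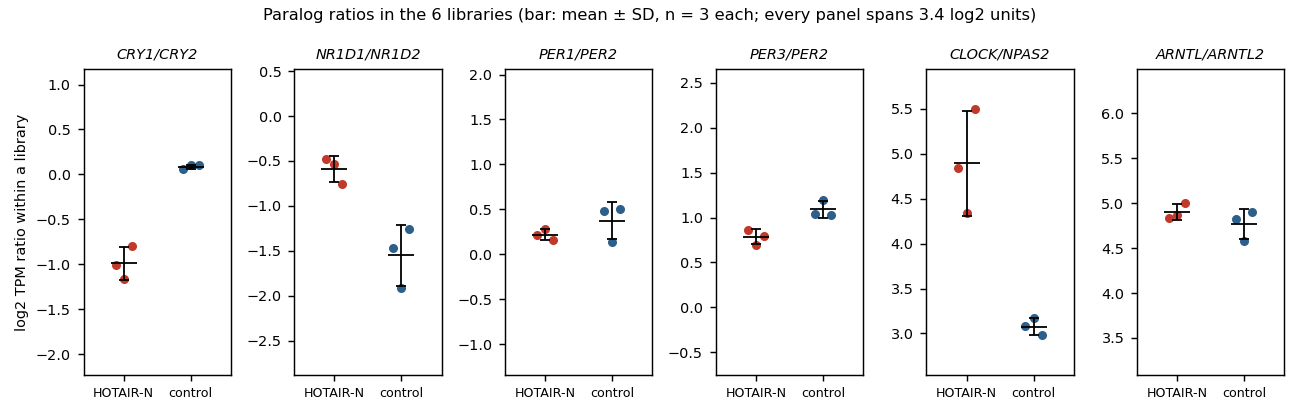
Log2 ratio of TPM between paralogs within each of the 3 HOTAIR-N siRNA libraries (red, left) and the 3 control siRNA libraries (blue, right), with mean and SD as bars and panels of equal span. The groups do not overlap for CRY1 over CRY2, NR1D1 over NR1D2, PER3 over PER2 and CLOCK over NPAS2, and they overlap for PER1 over PER2 and ARNTL over ARNTL2.

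Over the 6 paralog ratios compared, the permutation p was 0.10 for 4 and 0.40 for 2, or 0.15 and 0.40 after Benjamini-Hochberg adjustment. No ratio can pass a threshold of 0.05 with 3 libraries a group. PER3 over PER2 averaged 0.79 ± 0.08 on the log2 scale in HOTAIR-N siRNA libraries and 1.09 ± 0.09 in control siRNA libraries (SD, n = 3 each), a small and even shift. PER1 over PER2 averaged 0.22 ± 0.06 in HOTAIR-N siRNA libraries and 0.38 ± 0.21 in control siRNA libraries (SD, n = 3 each), and control siRNA replicate 2 (0.14) lay below all HOTAIR-N siRNA libraries while the other control siRNA libraries lay above them.

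DBP, a PAR bZIP factor and one of the most strongly rhythmic outputs of the clock, had the largest fold of the 10 genes and the fewest counts. It was at 5.46, 5.66 and 3.74 CPM in HOTAIR-N siRNA replicates 1, 2 and 3, against 2.86, 2.09 and 2.78 CPM in control siRNA replicates 1, 2 and 3, or 129 to 199 and 70 to 102 counts. The groups did not overlap, although HOTAIR-N siRNA replicate 3 lay well below the rest of its group. The rise was 1.92-fold (log2 fold change 0.94, SE 0.17, edgeR adjusted p = 0.00038). Its log2 fold change was 1.1 without HOTAIR-N siRNA replicate 3 and 0.81 without control siRNA replicate 2, and 0.96 without both. Its promoter window held no match to any of the 4 motifs.

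**Figure D3:**
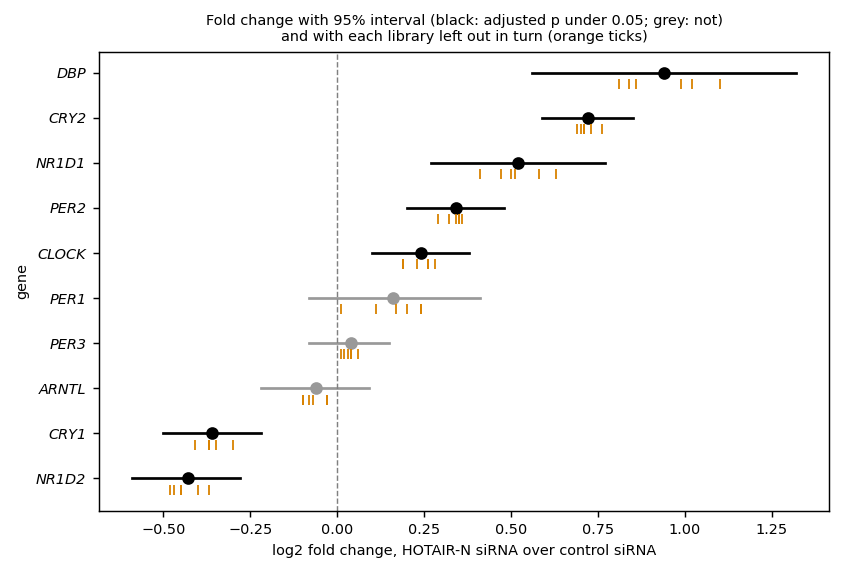
Log2 fold change of HOTAIR-N siRNA over control siRNA for the 10 clock genes (points) with 95% intervals (lines), black where the edgeR adjusted p was under 0.05 and grey otherwise, and the fold change with each library left out in turn (orange ticks). DBP lies highest at 0.94 and NR1D2 lowest at -0.43, and no tick crosses 0.

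The libraries that stood apart from their groups shared a direction in several clock genes. Over all 14919 genes tested, the deviations of these libraries from their group means had a correlation of 0.22. This was the highest of any pair across the groups. PER1, PER2, CRY2, NR1D1 and DBP had their lowest HOTAIR-N siRNA value in replicate 3, and PER1, PER2, NR1D1 and DBP their lowest control siRNA value in replicate 2. CLOCK, ARNTL and CRY1 had their highest value of each group in the same libraries. Without both libraries, 5 clock genes were again called higher and 2 lower, and 11130 genes were called in all. The log2 fold change without them was 0.46 for NR1D1, 0.75 for CRY2, 0.30 for PER2, -0.41 for CRY1, -0.40 for NR1D2 and 0.23 for CLOCK. PER1 was at 0.05 without them and again not called (edgeR adjusted p = 0.52). Of the clock transcripts described further on, 4 were called without them, against 6 with all libraries, and of the other genes of the clock 23 were higher and 29 lower, against 22 and 25. The part of these libraries in the size of single values was not tested further.

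Per length, CRY2 was the most abundant of the clock genes after the HOTAIR-N siRNA and CRY1 after the control siRNA, and DBP had the lowest mean in both groups. In TPM, CRY2 led after the HOTAIR-N siRNA at 21.2 ± 1.18, followed by CRY1 at 10.7 ± 0.747, PER3 at 10.2 ± 0.325, ARNTL at 10.1 ± 0.547 and NR1D2 at 9.09 ± 0.487 (SD, n = 3 each). PER1 (6.90), CLOCK (6.84), NR1D1 (6.05), PER2 (5.93) and DBP (5.65) came after them. CRY1, PER3 and ARNTL overlapped from neighbour to neighbour, as did PER1 with CLOCK and NR1D1 with PER2 and DBP. After the control siRNA the order was CRY1 (13.4), CRY2 (12.7), NR1D2 (12.1), ARNTL (10.3), PER3 (9.77), PER1 (6.02), CLOCK (5.67), PER2 (4.59), NR1D1 (4.14) and DBP (2.88). There the neighbours CRY2 and NR1D2, ARNTL and PER3, PER1 and CLOCK, and PER2 and NR1D1 overlapped. DBP was below every other clock gene in all control siRNA libraries, and its range overlapped those of NR1D1 and PER2 after the HOTAIR-N siRNA.

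The 10 genes have 51 RefSeq transcripts in the tables, 26 of which could be tested and 6 of which were called, 4 higher and 2 lower, where 32% of all transcripts tested were called. The called ones were the single transcripts of PER2, CRY1, NR1D1 and DBP, NM_021117 of CRY2 and NM_001145425 of NR1D2. NM_001145425 was at 5.24, 6.87 and 7.45 TPM in HOTAIR-N siRNA replicates 1, 2 and 3, against 9.03, 11.1 and 8.52 TPM in control siRNA replicates 1, 2 and 3 (log2 fold change -0.57, SE 0.16, edgeR adjusted p = 0.046). NM_021117 of CRY2 was called in each of 11 other settings tried, whereas NM_001145425 of NR1D2 and NM_021724 of NR1D1 were called in 2 of 11 and NM_001352 of DBP in 3 of 11. NM_004075 of CRY1 was called in 8 of 11 and NM_022817 of PER2 in 7 of 11. For CLOCK, the main transcript NM_004898 was at 6.15 ± 0.764 TPM after the HOTAIR-N siRNA and 5.02 ± 0.265 TPM after the control siRNA (SD, n = 3 each) and was not called (edgeR adjusted p = 0.10), although its groups did not overlap. The count of called transcripts fell to 2 without HOTAIR-N siRNA replicate 1 or 2, and to 3 without control siRNA replicate 1 or 2.

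Among the 34 annotated transcripts of ARNTL, 17 reached a mean of 0.1 TPM in a group and 11 could be tested. None was called by edgeR (smallest adjusted p = 0.39), and the highest mean of any was 2.96 TPM after the HOTAIR-N siRNA and 2.90 TPM after the control siRNA. The estimated reads of the gene were spread over many annotated forms. Some estimates varied widely within a group, as for NM_001297719, with 74.15, 59.68 and 0 counts in control siRNA replicates 1, 2 and 3. Which forms were expressed is therefore uncertain. PER3 had 3 transcripts above that level, of which NM_001289862 made up 52.6% ± 2.89 of the gene after the HOTAIR-N siRNA and 55.1% ± 3.82 after the control siRNA (SD, n = 3 each). Transcript usage could be tested in 5 of the clock genes, CLOCK, ARNTL, PER3, CRY2 and NR1D2. The usage test of edgeR called 0 of them, and 0 had an unadjusted p under 0.05, where 6.42% of all genes tested for usage were called.

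**Figure D4:**
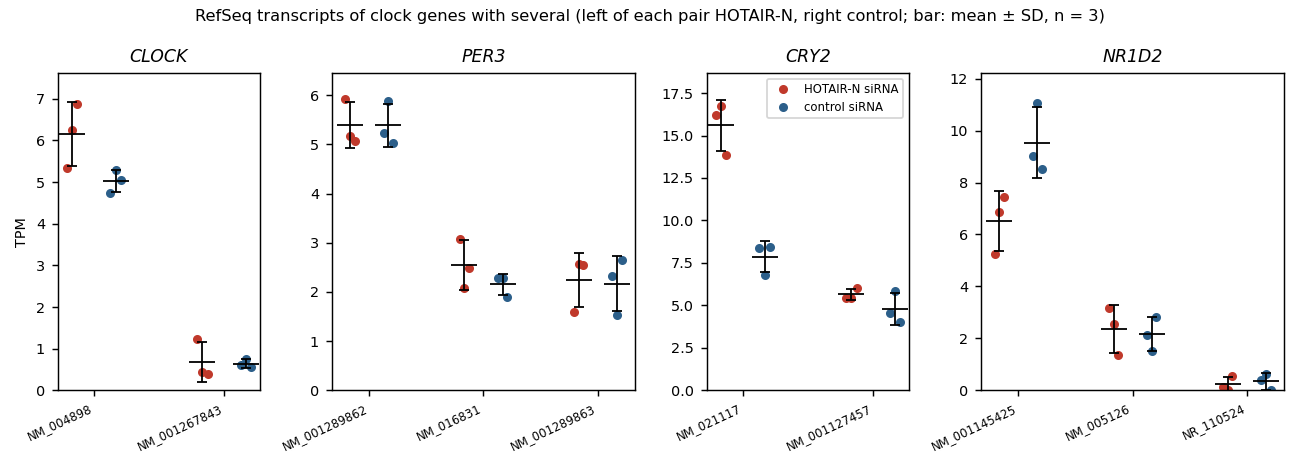
TPM of RefSeq transcripts of CLOCK, PER3, CRY2 and NR1D2 in the 3 HOTAIR-N siRNA libraries (red, left of each pair) and the 3 control siRNA libraries (blue, right), with mean and SD as bars, for transcripts with a mean of at least 0.1 TPM in a group. NM_021117 of CRY2, NM_001145425 of NR1D2 and, narrowly, NM_004898 of CLOCK have groups that do not overlap, and the other transcripts shown overlap.

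Other genes of the clock were read from 9 lists by role, with 66 genes reported in all, of which 65 could be tested. Of these, 22 rose, 25 fell and 18 were not called, with a median log2 fold change of -0.04. Among all genes tested, 36.2% were called higher and 34.8% lower, and the counts of each list below are read against these shares. The log2 fold changes of these 65 genes ran from -3.05 to 2.72, where those of the 10 clock genes ran from -0.43 to 0.94. A range widens with the number of genes, and over all genes tested it was -4.65 to 8.4. The median size regardless of sign was 0.41 over the 65, 0.35 over the 10 and 0.38 over all genes tested. Of 2 ROR receptor genes reported, whose products activate through the elements that NR1D1 and NR1D2 repress, 1 fell and 1 was not called. RORB was at 0.823, 1.10 and 1.28 CPM in HOTAIR-N siRNA libraries, against 8.97, 9.35 and 8.08 CPM in control siRNA libraries, and fell to 12.1% of control (log2 fold change -3.05, SE 0.14, edgeR adjusted p = 2.3e-09). RORA had 7 to 15 counts in a HOTAIR-N siRNA library and 5 to 13 in a control siRNA library and was not called (edgeR adjusted p = 0.84).

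Of 3 other D-box factor genes, 2 rose and 1 was not called. TEF, the PAR bZIP paralog of DBP, was at 21.0, 19.4 and 16.8 CPM in HOTAIR-N siRNA replicates 1, 2 and 3, against 11.1, 9.95 and 10.3 CPM in control siRNA replicates 1, 2 and 3, and rose 1.82-fold (edgeR adjusted p = 2.7e-06). As for DBP, its lowest HOTAIR-N siRNA library was replicate 3. NFIL3, which represses through the same elements, rose 1.48-fold (edgeR adjusted p = 2.3e-05), and HLF, at 0.376 ± 0.0194 CPM after the HOTAIR-N siRNA and 0.239 ± 0.0653 CPM after the control siRNA (SD, n = 3 each), was not called (edgeR adjusted p = 0.10). Of the 3 repressors of CLOCK and ARNTL outside the PER and CRY families, 2 rose and 1 fell. CIART rose 1.78-fold, to 11.4 ± 0.427 CPM after the HOTAIR-N siRNA, against 6.43 ± 0.559 CPM after the control siRNA (SD, n = 3 each). BHLHE41 rose 3.68-fold at a low level, at 0.962 ± 0.0425 CPM after the HOTAIR-N siRNA and 0.260 ± 0.0350 CPM after the control siRNA, and its paralog BHLHE40 fell to 75.2% of control, at 107, 98.5 and 94.8 CPM in HOTAIR-N siRNA libraries, against 135, 132 and 133 CPM in control siRNA libraries.

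**Figure D5:**
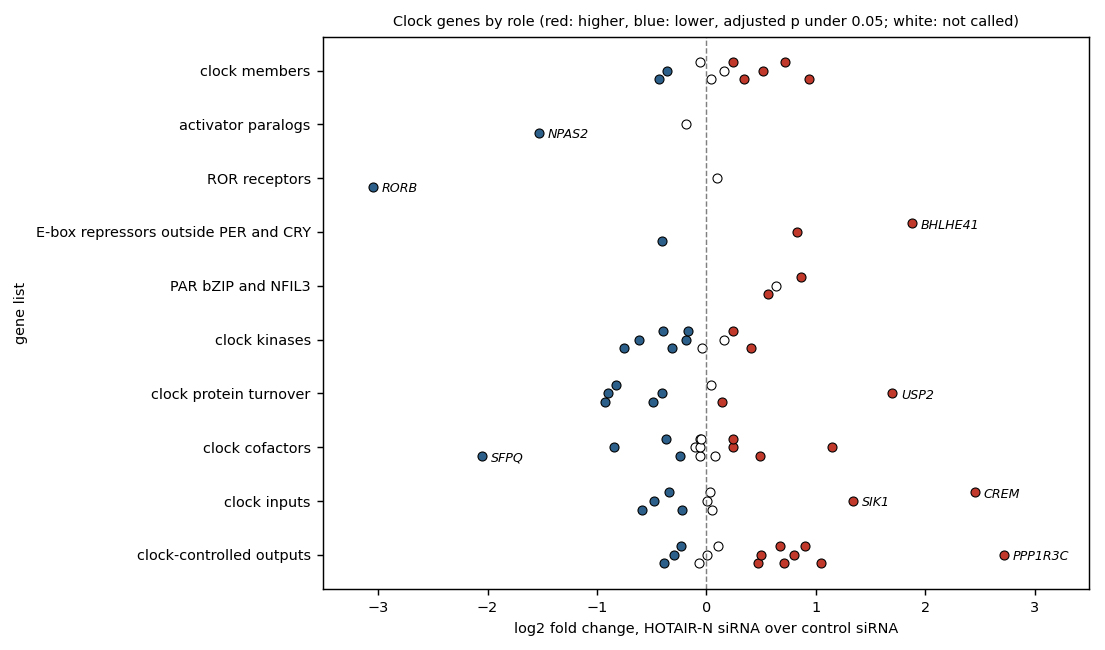
Log2 fold change of HOTAIR-N siRNA over control siRNA for each tested gene of the clock lists, 1 row a list and 1 point a gene, red where called higher and blue where called lower at an edgeR adjusted p under 0.05, white where not called. The 10 clock genes lie between -0.43 and 0.94, while RORB (-3.05) and SFPQ (-2.05) lie far to the left and PPP1R3C (2.72) and CREM (2.45) far to the right.

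Of 10 genes for kinases that act on clock proteins, 2 rose, 6 fell and 2 were not called, with a median log2 fold change of -0.18. PRKAA1, a catalytic subunit of AMP-activated kinase, which can mark CRY1 for degradation, fell to 59.6% of control, GSK3B to 65.3% and CSNK1D, a kinase of PER proteins, to 76.0%. CSNK1A1 and CSNK2A1 rose 1.33-fold and 1.18-fold. Of 8 turnover genes tested and reported, 2 rose, 5 fell and 1 was not called, with a median log2 fold change of -0.45. BTRC and FBXW11, paralogous ubiquitin ligase subunits that recognise phosphorylated PER, fell to 53.5% and 56.1% of control, with BTRC at 26.9 ± 1.47 CPM after the HOTAIR-N siRNA and 50.3 ± 1.90 CPM after the control siRNA (SD, n = 3 each). HUWE1 fell to 71.2%. The ubiquitin ligase gene SIAH2 rose 1.10-fold, and the deubiquitinase gene USP2 3.25-fold, to 13.4 ± 0.563 CPM after the HOTAIR-N siRNA, against 4.14 ± 0.140 CPM after the control siRNA (SD, n = 3 each). FBXL21 was listed at 0 counts in every library.

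Of 14 cofactor genes, 4 rose, 4 fell and 6 were not called. SFPQ, an RNA-binding protein found in PER complexes, was at 75.7, 74.4 and 83.7 CPM in HOTAIR-N siRNA replicates 1, 2 and 3, against 308, 336 and 327 CPM in control siRNA replicates 1, 2 and 3, and fell to 24.1% of control (log2 fold change -2.05, SE 0.05, edgeR adjusted p = 6.1e-11). Its partner NONO was not called, at 95.8% of control (edgeR adjusted p = 0.15). SIRT1, a deacetylase of clock proteins, fell to 55.7% of control. PPARGC1A, a coactivator of ROR receptors, rose 2.22-fold and KDM5A, a cofactor of CLOCK and ARNTL, 1.40-fold.

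Of 9 genes of the CREB and glucocorticoid routes through which PER1 is induced, 2 rose, 4 fell and 3 were not called. CREM, which encodes cAMP-responsive activators and repressors, was at 20.9, 21.4 and 20.3 CPM in HOTAIR-N siRNA replicates 1, 2 and 3, against 3.75, 4.11 and 3.58 CPM in control siRNA replicates 1, 2 and 3, and rose 5.47-fold (log2 fold change 2.45, SE 0.08, edgeR adjusted p = 1.5e-10). SIK1, a kinase that restrains the CREB coactivators, rose 2.53-fold, while the coactivator gene CRTC3 fell to 66.6% of control and the glucocorticoid receptor gene NR3C1 to 71.5%. PER1 itself was not called, as given above. Of 14 genes often described as clock outputs, 8 rose, 3 fell and 3 were not called, with a median log2 fold change of 0.48. NAMPT, the rate-limiting enzyme of NAD salvage, rose 1.64-fold, LPIN1 1.86-fold, the cell cycle inhibitor gene CDKN1A 2.07-fold, and the glycogen-targeting subunit gene PPP1R3C 6.57-fold, at 1.97 ± 0.102 CPM after the HOTAIR-N siRNA and 0.296 ± 0.141 CPM after the control siRNA (SD, n = 3 each). The kinase gene WEE1, KLF10 and TSC22D3 fell, to 85.2%, 76.2% and 81.2% of control. All of these genes answer to pathways besides the clock, and their counts are read against the 36.2% of genes higher and 34.8% lower in general.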

How the data were processed

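The members and the gene lists were chosen with earlier results of these data known. Per the submitters' processing notes, STAR 2.6.0c, RSEM 1.3.0 and the build hg19 were used; settings are not given in the sources used here. Per the file headers, each library has a gene and a transcript table with expected counts, TPM, FPKM and, for transcripts, the percent of the gene that each makes up, all deposited by the authors; FPKM were not used. Per the labels' protocols, libraries came from a stranded total RNA kit after ribosomal RNA removal.

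Expected counts were rounded, filtered with filterByExpr (minimum count 10, minimum total 15), scaled by TMM and tested across all genes, or all transcripts, with edgeR 4.0.16 (R 4.3.3) by the quasi-likelihood test without covariates; calls use a Benjamini-Hochberg adjusted p under 0.05. Transcript usage was tested with diffSpliceDGE. Folds are HOTAIR-N siRNA over control siRNA, and SE is the log2 fold change over the root of F. The steps were tested on simulated counts. The series describes the 3 libraries a group as independent transfections.

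Named genes are the 10 members, HOTAIR, and of each list the 4 with the smallest p and those against its majority. Some genes of these lists are not reported here and are left out of the list counts. THRA, NONO and the untested FBXL21 fall outside that rule and were named after their values were seen. Replicate numbers did not pair libraries (correlation of deviations -0.21 to -0.04 over 14919 genes for the same number). Alternatives were DESeq2 1.42.0, limma-voom (limma 3.58.1), other scalings and filters, a replicate block, left-out libraries, a 1.2-fold test and a stricter threshold. Promoter windows are from RefSeq (GRCh38.p14); all 10 members matched, ARNTL as BMAL1.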

Additional observations from a re-analysis of the deposited data

How the results depend on the processing

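The called clock genes kept their direction under all 17 other settings. The 1.2-fold test and the stricter threshold reuse the same fold changes and so could not turn a direction. At gene level the counts of 5 higher and 2 lower moved under 2 settings. The test against a 1.2-fold change called 3 higher (DBP, CRY2 and NR1D1), 1 lower (NR1D2) and 6876 genes in all, against 10605; CLOCK (adjusted p = 0.56), PER2 (0.092) and CRY1 (0.056) did not pass it. Scaling by library totals alone turned the sign of ARNTL (0.03) and called PER3 higher (0.13), which made 6 higher. Member transcripts called numbered 6, against 3 with no filter, 1 at an adjusted p under 0.01 and 2 to 5 with single libraries left out, which leaves fewer samples. With the replicate block, 1 member transcript was called, and the calls of clock genes were 5 higher and 2 lower as before; same-numbered libraries did not deviate together. Low counts limit the precision for DBP, NPAS2, ARNTL2, RORA, RORB, BHLHE41, HLF and PPP1R3C.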
